A study of Mus musculus with 39 samples.

Results

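Reactive astrocyte genes are the set that astrocytes raise when the brain is injured, and 10 of them were followed here in mouse brain after soman: Gfap, Vim, Serpina3n, Lcn2, Cp, Osmr, Stat3, Timp1, Cd44 and Steap4. They were chosen by gene symbol from a table of 47561 genes, and all 10 were found. Soman, a nerve agent, inhibits acetylcholinesterase and so lets acetylcholine build up at synapses. Mice received it under the skin in doses of 1/10 LD50, 1/5 LD50 and 1/2 LD50, where the LD50 is lethal to 50% of animals, with sampling of the brain on day 1, 3, 7 or 14. With 1 saline group this gave 12 soman groups and 13 groups in all, each of 3 libraries described as biological replicates, or 39 libraries. The labels give no strain, sex, age or brain region, no number of doses or of animals per library, and no day for the saline group, which every comparison with saline shares.

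Astrocytes answer injury by building intermediate filaments and by secreting protease inhibitors, iron-binding proteins and matrix modulators. Much of this programme is driven by cytokines of the interleukin-6 family, which signal through receptors such as Osmr to the transcription factor Stat3. Several of the genes are also made elsewhere: Lcn2 by neutrophils, Cp by the choroid plexus, Vim and Cd44 by vessels and immune cells. In bulk brain RNA, fewer cells of a type and less RNA per cell cannot be told apart. Astrocytes themselves were measured in every library, since their defining gene Aldh1l1 lay between 15.1 and 29.3 FPKM and Aqp4, Slc1a3 and Gja1 were above 0 throughout.

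Values are FPKM, fragments scaled to transcript length and library total, as the authors deposited them. The test, limma on log2(FPKM + 1), covered the 14701 genes that reached 1 FPKM in 3 libraries or more. Of the 10 genes 7 passed this filter, and Lcn2, Timp1 and Steap4 were too low. A change is called at an adjusted p under 0.05 over all tested genes, and log2 changes are given with their standard error. On this scale changes of genes near or below 1 FPKM are understated.

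Some libraries stood apart. In 1/10 LD50 at day 7, replicates 2 and 3 drew 21.7% and 25.9% of their FPKM from mitochondrial genes, where the typical library (the median) drew 9.60%. In 7 libraries many of the genes that set the other replicates of the group apart lay midway between them. Only genes averaging at least 5 FPKM that differed over 2-fold between those others were counted. At day 1 the 7 include replicate 3 of all doses, and at day 14 replicate 3 of 1/10 and of 1/5 LD50. The others were saline replicate 3 and, from day 7, replicate 2 of 1/10 LD50. The share midway was 37.2% to 69.6% in the 7, with a median of 16.2% in the rest. For the lowest of the 7, the highest library of another group reached 36.6%. Replicate 3 of the day 3 group given 1/10 LD50 had 38.5% but was not included, since another group's library reached 61.5%. Leaving out those 7 libraries left 1 of the 14701 genes called in the comparison of all soman groups with saline, against 378 (2.57%) with them. Results are therefore also given without these libraries where a call depends on them.

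No reactive astrocyte gene passed the test as higher than saline in any of the 12 soman groups. Each of the 7 tested genes was compared with saline in 12 groups, 84 comparisons in all, and 4 of them passed, each as a fall. The share of all tested genes that rose was 0.068%, 0% and 0.0272% at day 1 (1/10, then 1/5, then 1/2 LD50), 1.61%, 2.48% and 3.79% at day 3, 4.23%, 6.49% and 1.71% at day 7, and 0.0476%, 0.0612% and 0.0816% at day 14. The 4 falls are 4.76% of these comparisons, against 5.73% of the same comparisons over all tested genes. They were 3 of Cp and 1 of Stat3, at days 3 and 7. Without the 7 libraries between the others none of the 4 passed.

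**Figure D1:**
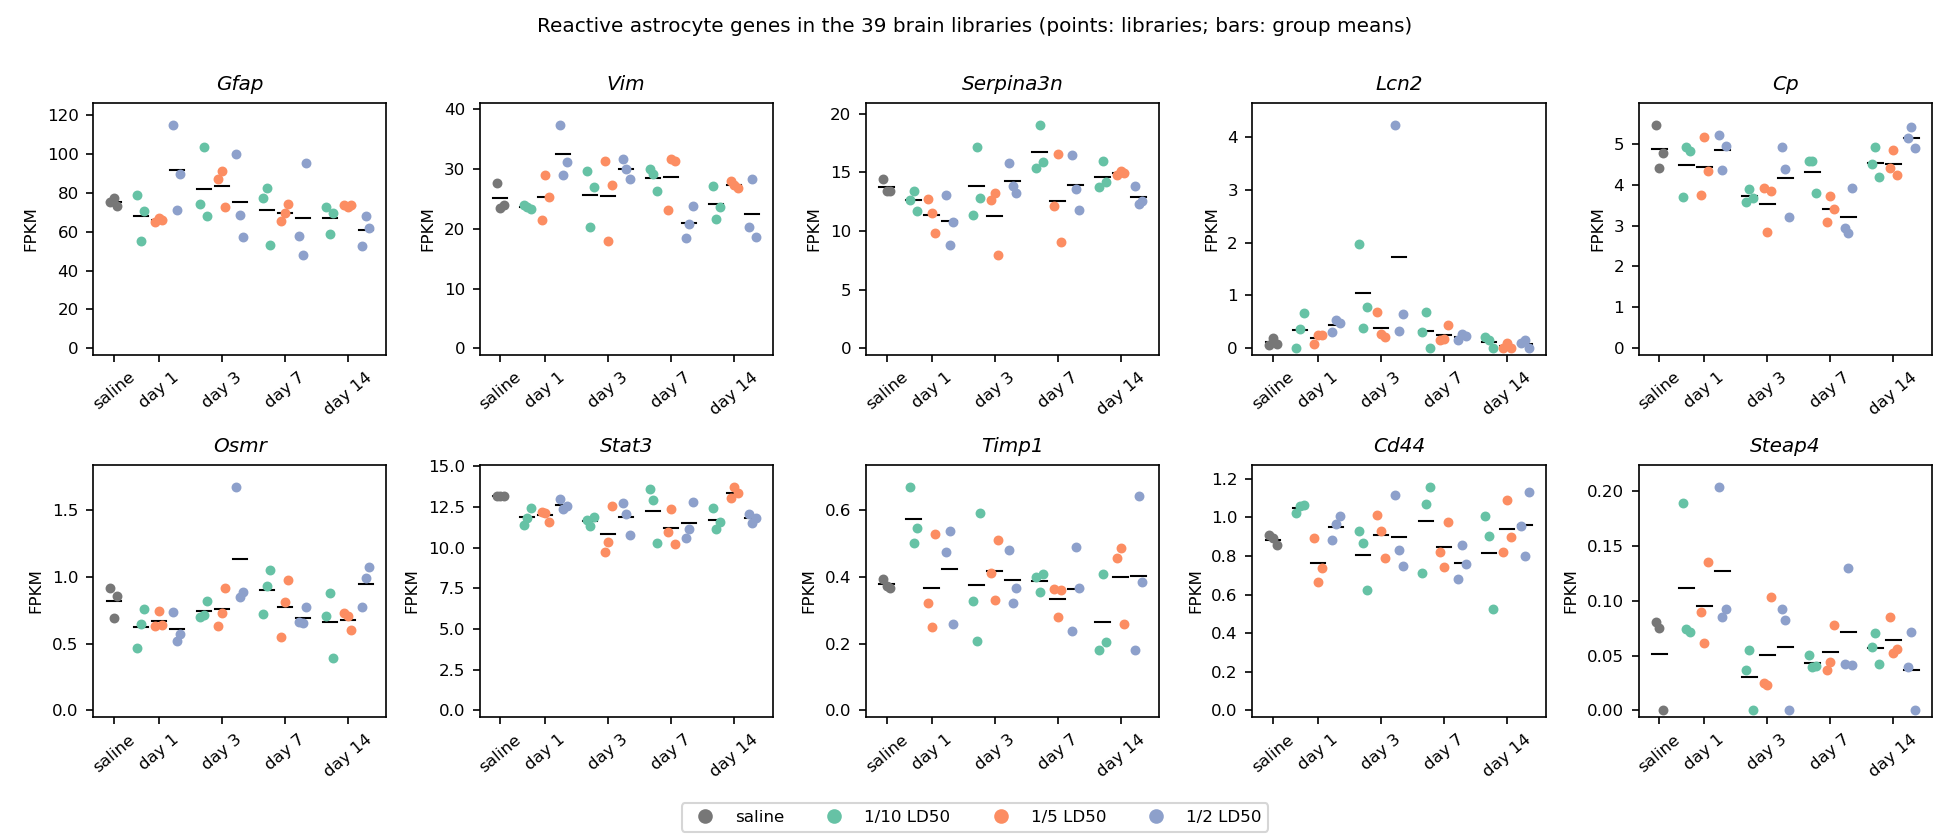
FPKM of the 10 genes (y axes, linear) in each library, with saline at the left and then days 1, 3, 7 and 14, coloured by dose; points are libraries and bars are means of 3. Lcn2 has its highest points at day 3 (4.22 and 1.97 FPKM), Cp is lowest at days 3 and 7, and the Gfap points of the soman groups lie on both sides of saline.

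The filament genes come first. Gfap, which encodes the main intermediate filament of astrocytes, averaged 72.9 ± 14.8 FPKM in the 36 soman libraries and 75.3 ± 1.92 FPKM in saline (SD, n = 3). The soman libraries ran from 48.1 to 114.7 FPKM with a median of 70.9, while the saline libraries had 75.4, 77.2 and 73.3 FPKM. Of the soman libraries 10 lay above every saline library and 22 below, so that the groups overlap.

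The highest Gfap mean came with 1/2 LD50 at day 1, at 114.7, 71.2 and 89.5 FPKM, of which 1 library lay below saline. The lowest mean was that of 1/2 LD50 at day 14, with 52.6, 67.9 and 62.0 FPKM, all below the saline libraries. At 1/10 LD50 at day 14 and 1/5 LD50 at day 1 all libraries also lay below saline. Among all tested genes 11.3%, 15.9% and 9.98% did so in these 3 groups, in the order named.

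The Gfap change from saline ranged from a log2 of -0.31 to 0.26 over the 12 groups, and the lowest adjusted p was 0.540 (limma). The 95% confidence intervals reached no further than -0.73 and 0.67, so a rise above 1.59-fold lies outside the interval in every group. Over all soman groups the change was -0.07 ± 0.15 (adjusted p = 0.860), with an interval of -0.38 to 0.24.

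Vim, the intermediate filament that astrocytes share with vessel and mesenchymal cells, averaged 26.3 ± 4.52 FPKM in soman and 25.1 ± 2.31 FPKM in saline libraries (SD, n = 36 and 3). With 1/2 LD50 it had 37.4, 29.0 and 31.3 FPKM at day 1 and 31.7, 30.1 and 28.3 FPKM at day 3, against 27.8, 23.5 and 24.1 FPKM in saline. Both groups lay wholly above saline, as 7.93% of tested genes did at day 1 and 20.3% at day 3. The day 1 difference was 0.36 (adjusted p = 0.613, limma), so it did not pass.

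Between doses, Vim was lower at 1/2 than at 1/10 LD50 at day 7, with 18.4, 20.8 and 23.8 FPKM against 29.97, 29.2 and 26.3 FPKM. The difference of -0.43 ± 0.16 missed the threshold (adjusted p = 0.0622, limma), in a comparison where 17.7% of all tested genes passed and 4.11% passed as falls. It passed without replicate 3 of 1/2 LD50 (adjusted p = 0.0475), with median-ratio scaling (0.0240) and with the length trend removed (0.0260). Without the 2 libraries of high mitochondrial share, which leaves 1 library at 1/10 LD50 that is assumed to vary like the other groups, the difference was -0.50 ± 0.23 (adjusted p = 0.600).

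**Figure D2:**
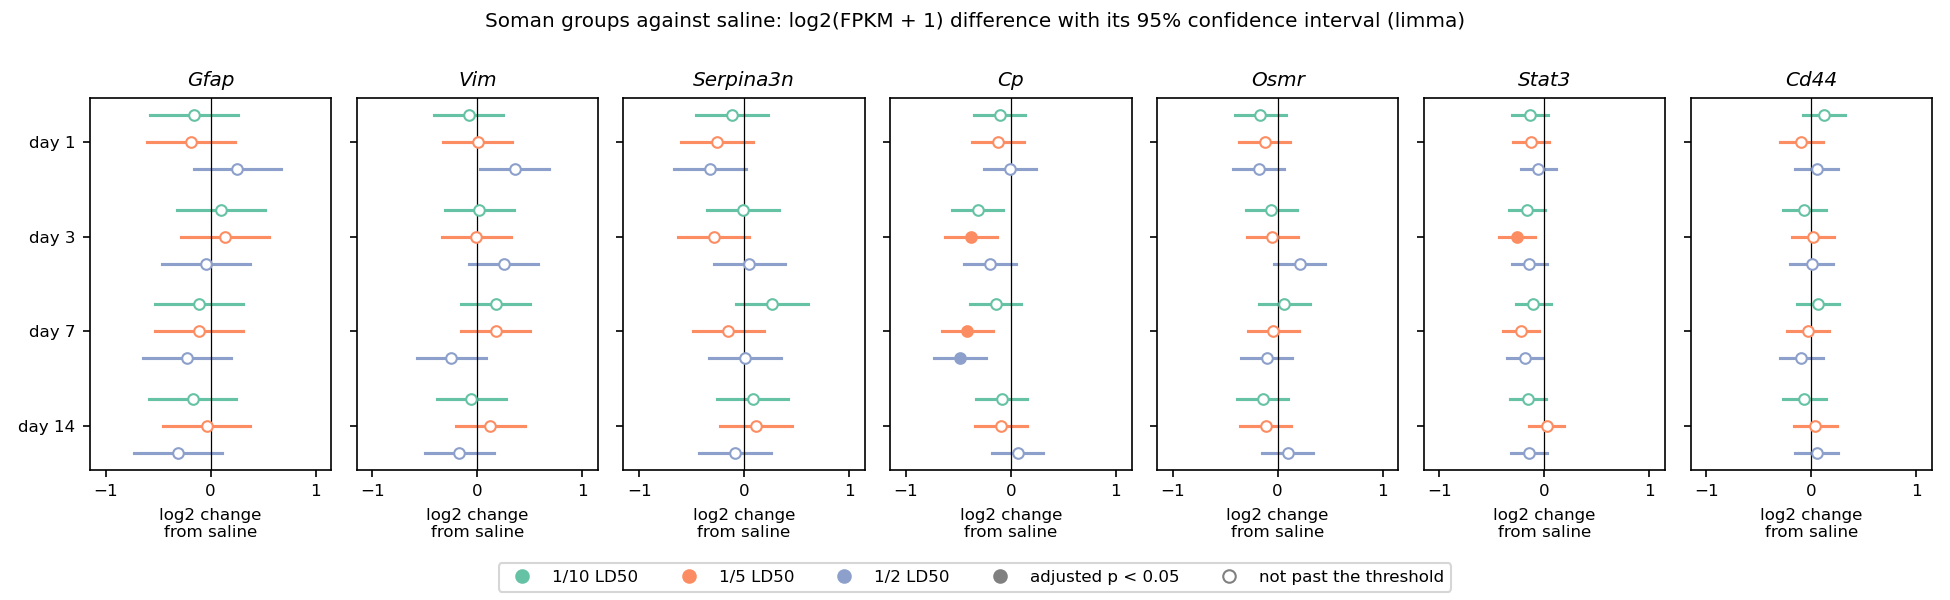
Log2(FPKM + 1) change from saline (x axes) of the 7 tested genes in the 12 soman groups, by day from top to bottom and coloured by dose; bars are 95% confidence intervals from limma and filled points have an adjusted p under 0.05. The 4 filled points are all below 0: Cp in 3 groups and Stat3 in 1.

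Serpina3n encodes a secreted serine protease inhibitor and is among the strongest injury markers of astrocytes. It averaged 13.3 ± 2.41 FPKM in soman and 13.7 ± 0.600 FPKM in saline libraries (SD, n = 36 and 3), and no group passed against saline. By day the median over 9 soman libraries was 11.7 FPKM at day 1, 13.2 at day 3, 15.4 at day 7 and 14.2 at day 14. At day 1 the range was 8.78 to 13.4 FPKM, and 8 of 9 libraries lay below every saline library. That count was not made over all tested genes. Wholly below saline lay 1/5 and 1/2 LD50 at day 1 and 1/5 LD50 at day 3. Of tested genes 9.98%, 9.6% and 14.9% did so there. Wholly above lay 1/10 LD50 at day 7, with 15.4, 19.0 and 15.9 FPKM, and 1/5 LD50 at day 14. Of tested genes 7.71% and 14.2% did so. Replicates 2 and 3 of the former are the libraries of high mitochondrial share.

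Day 7 was 0.27 ± 0.10 above day 1 for Serpina3n (adjusted p = 0.0348, limma), with 14.4 ± 3.05 FPKM at day 7 and 11.6 ± 1.58 FPKM at day 1 (SD, n = 9 each). Of the 7 tested genes 1 rose and 1 fell in this comparison, against 10.2% and 14.8% of all tested genes. The call was lost when any of 7 libraries was left out, with the estimate at 0.21 to 0.27. The adjusted p was 0.0655, 0.0782, 0.0854 and 0.0519 when a day 1 library was left out, in order 1/10 LD50 replicate 3, 1/5 LD50 replicate 3, 1/2 LD50 replicate 2 and 1/2 LD50 replicate 3. It was 0.0757, 0.102 and 0.0901 without replicate 2 of 1/10 LD50, replicate 2 of 1/5 LD50 and replicate 1 of 1/2 LD50 at day 7. Without the 7 libraries between the others the estimate was 0.20 (adjusted p = 0.309), and without the 2 libraries of high mitochondrial share it was 0.24 (0.122).

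Any difference among the 4 days passed for Serpina3n at an adjusted p of 0.0484 (limma), and leaving out 1 library took it over the threshold in 25 of 36 cases, up to 0.121. It was 0.363 without the 7 libraries and 0.0874 without the 2 of high mitochondrial share.

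Lcn2 encodes lipocalin 2, which binds iron-loaded siderophores, and it had the widest relative range of the set. At day 3 it had 1.97, 0.383 and 0.778 FPKM with 1/10 LD50. With 1/5 LD50 it had 0.687, 0.267 and 0.222 FPKM, and with 1/2 LD50 4.22, 0.323 and 0.644 FPKM. Saline libraries had 0.0664, 0.197 and 0.0747 FPKM. All 9 day 3 libraries lay above every saline library, which 1.82% of genes under the filter and above 0 in at least 30 libraries did at that day.

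The other days were lower. The median of Lcn2 was 0.303 FPKM at day 1, 0.644 at day 3, 0.228 at day 7 and 0.108 at day 14. It was listed at 0 in 6 soman libraries, 4 of them at day 14, and in no saline library. Above all of saline lay 7 of 9 libraries at day 1, 5 of 9 at day 7 and 1 of 9 at day 14. Shares of other genes were not counted for these.

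Because Lcn2 was under the filter, it was fitted without a filter and with a pseudocount of 0.1, a setting chosen after the data were seen. Any difference among days then passed (adjusted p = 0.00362, limma), as it did for 18.3% of the 37782 genes in that fit. It held with each of the 36 soman libraries left out in turn, where it ran from 0.00139 to 0.0101, and at 0.0246 without the 7 libraries between the others.

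Against saline the mean of the 3 doses at day 3 was 1.93 ± 0.62 higher for Lcn2 on the log2(FPKM + 0.1) scale, at an adjusted p of 0.0701 (limma), where 4.71% of genes passed. With no filter and the pseudocount of 1 used elsewhere the change was 0.71 ± 0.25 (adjusted p = 0.0987). On the scale with 0.1 it passed without replicate 2 of 1/2 LD50 (0.0356) and without the 2 libraries of high mitochondrial share (0.0433). It was 0.242 without saline replicate 3 and 0.266 without the 7 libraries. By dose the changes were 2.22, 1.14 and 2.43 at 1/10, 1/5 and 1/2 LD50, with adjusted p of 0.145, 0.541 and 0.0938. At 1/2 LD50 the change was 1.45 (adjusted p = 0.464) without replicate 1, the library at 4.22 FPKM, and 3.13 (0.0390) without replicate 2.

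Markers of neutrophils and monocytes were followed beside Lcn2. In replicate 1 of 1/2 LD50 at day 3, which held the highest Lcn2 of all 39 libraries, the 8 markers summed to 16.5 FPKM, against 4.99 to 10.1 FPKM in saline. S100a8 (1.04 FPKM), S100a9 (1.92 FPKM) and Ly6c2 (5.31 FPKM) were also highest there. In the library with the next highest Lcn2, replicate 1 of 1/10 LD50 at day 3, the 8 summed to 7.55 FPKM. There S100a8 was at 0.0592, S100a9 at 0.213 and Ly6c2 at 1.77 FPKM, and 2 of the 8, Ly6c2 and Camp, lay above every saline library, against 7 of 8 in the first library. Endothelial markers summed to 185.2 FPKM in the first of these libraries and to 127.6 FPKM in the other, against 117.0 to 117.8 FPKM in saline. Markers of several other cells in the first library also lay above every saline library. The counts were 7 of 8 for ependyma, 7 of 8 for oligodendrocytes, 8 of 10 for endothelium and 7 of 12 for microglia. They were 4 of 8 for pericytes and smooth muscle, 4 of 10 for neurons and 1 of 14 for meningeal fibroblasts. For choroid plexus it was 0 of 10 and for erythroid cells 0 of 5. The same count over all tested genes was not made for either library, so the marker counts have no share to be set against. With 1/2 LD50 at day 3, all 3 libraries lay above every saline library for 20.3% of tested genes. The part of any of these cells in the Lcn2 values was not tested.

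Cp encodes ceruloplasmin, the copper ferroxidase that lets iron leave cells, and it was the gene of the set with most calls. At day 3 it had 3.57, 3.89 and 3.67 FPKM with 1/10 LD50, then 3.93, 2.84 and 3.84 with 1/5 LD50, then 4.91, 4.39 and 3.21 with 1/2 LD50. At day 7 it had 4.58, 4.57 and 3.80 FPKM, then 3.09, 3.73 and 3.41, then 2.94, 2.81 and 3.91 at the same doses. Saline libraries had 5.45, 4.41 and 4.78 FPKM. The groups at 1/10 and 1/5 LD50 at day 3 and at 1/5 and 1/2 LD50 at day 7 lay wholly below saline, as 15.8%, 14.9%, 18.8% and 18.7% of tested genes did in those groups.

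Cp fell by 0.38 ± 0.12 at 1/5 LD50 at day 3 (adjusted p = 0.0442), by 0.41 ± 0.12 at 1/5 LD50 at day 7 (0.0177) and by 0.48 ± 0.12 at 1/2 LD50 at day 7 (0.0107), all by limma. At 1/5 LD50 at day 3, 2 of the 7 tested genes fell, against 6.12% of all tested genes. At day 7 it was 1 of 7 at each of these doses, against 8.87% at 1/5 LD50 and 6.68% at 1/2 LD50.

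None of these Cp calls held without the 7 libraries between the others, where the adjusted p was 0.184, 0.0982 and 0.0956 in the same order. The estimates there were -0.39, -0.42 and -0.50. At 1/5 LD50 at day 3 the adjusted p was 0.0542 and 0.266 without its replicates 1 and 2, and 0.173, 0.0506 and 0.101 without saline replicates 1, 2 and 3. At 1/5 LD50 at day 7 it was 0.0765 and 0.0574 without its replicates 1 and 3 and 0.0915 without saline replicate 1. At 1/2 LD50 at day 7 it was 0.0902 and 0.0565 without its replicates 1 and 2 and 0.0636 without saline replicate 1.

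Averaged over doses, Cp was 0.30 ± 0.10 lower than saline at day 3 (adjusted p = 0.0358, limma) and 0.35 ± 0.10 lower at day 7 (0.0152). Of the 7 tested genes 1 fell at each day, against 9.58% and 10.5% of all tested genes. Levels were 4.58 ± 0.573 FPKM at day 1, 3.80 ± 0.607 at day 3, 3.65 ± 0.650 at day 7 and 4.72 ± 0.417 at day 14 (SD, n = 9 each), beside 4.88 ± 0.529 FPKM in saline (n = 3). Both calls were lost without the 7 libraries, where the estimates at days 3 and 7 were -0.31 and -0.37 (adjusted p = 0.174 and 0.122). They were also lost without saline replicate 1, at -0.23 and -0.28 (0.208 and 0.125), and without saline replicate 3, at -0.31 and -0.36 (0.104 and 0.0625). The day 3 call was lost too without replicate 2 of 1/5 LD50, at -0.26 (0.0655), and replicate 3 of 1/2 LD50, at -0.25 (0.0607).

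Among soman groups alone, Cp differed among the 4 days (adjusted p = 0.000686, limma), as did 49.5% of all tested genes. This held in each alternative run, with an adjusted p of 0.00926 without the 7 libraries and 0.00271 without the 2 of high mitochondrial share. Day 7 was 0.27 ± 0.07 below day 1 (adjusted p = 0.00451), at 0.0532 without the 7 libraries. It passed with each of the 18 libraries of the comparison left out in turn, up to 0.0135.

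At day 7 Cp was also lower at 1/2 than at 1/10 LD50, by 0.34 ± 0.12 (adjusted p = 0.0475, limma), with 3.22 ± 0.599 FPKM at 1/2 LD50 and 4.31 ± 0.449 FPKM at 1/10 LD50 (SD, n = 3 each). The share of all tested genes that fell there was 4.11%. Without the 2 libraries of high mitochondrial share the difference was -0.41 (adjusted p = 0.531), and 6 genes passed in place of 2597. It was also lost without each library of the groups but replicate 3 of 1/2 LD50, with adjusted p of 0.0853, 0.140 and 0.0893 without replicates 1, 2 and 3 of 1/10 LD50 and 0.176 and 0.169 without replicates 1 and 2 of 1/2 LD50.

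Markers of other cells that make Cp were followed at the same days. Of 10 choroid plexus markers 5 fell at day 3 and 5 at day 7, by the mean of the doses, and their sum was 235 to 530 FPKM at day 3 and 207 to 508 FPKM at day 7, against 392 to 542 FPKM in saline. Of 14 meningeal fibroblast markers 11 fell at day 3 and 12 at day 7, with sums of 63.2 to 85.9 and 51.4 to 76.5 FPKM, against 95.6 to 111.4 FPKM in saline. Among all tested genes 9.58% fell at day 3 and 10.5% at day 7. Without the 7 libraries, 0 choroid plexus markers fell at either day, and 9 meningeal markers fell at each. The choroid plexus sums overlapped saline at both days. At day 1, where Cp did not pass, the sums were 231.5 to 586.8 FPKM for choroid plexus and 83.5 to 106.1 FPKM for meningeal markers. At day 14, where Cp averaged 4.72 FPKM, 0 choroid plexus markers fell and their sum was 250.2 to 476.8 FPKM. Of the meningeal markers 9 fell at day 14, with sums of 66.02 to 80.97 FPKM, where 0.748% of all tested genes fell. Without the 7 libraries 0 of them fell at that day. Their part in the Cp values was not tested.

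Osmr, the receptor for oncostatin M, averaged 0.768 ± 0.220 FPKM in soman and 0.822 ± 0.117 FPKM in saline libraries (SD, n = 36 and 3). Its highest group was 1/2 LD50 at day 3, with 1.67, 0.851 and 0.886 FPKM, against 0.917, 0.692 and 0.859 FPKM in saline. The first of these is the library with the highest Lcn2, and the other replicates lay within the saline range. No group passed against saline, with a lowest adjusted p of 0.279 (limma).

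Stat3, the transcription factor that cytokines of the interleukin-6 family activate, averaged 11.9 ± 0.990 FPKM in soman and 13.2 ± 0.0226 FPKM in saline libraries (SD, n = 36 and 3). It lay below every saline library in 33 of 36 soman libraries. All 9 did so at day 1 and all 9 at day 3, as 2.12% and 8.2% of tested genes did. The saline values were nearly identical, so this count rests on a narrow group: their SD on the log2 scale was 0.00230, and the median over all tested genes was 0.0856.

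Stat3 had 9.73, 10.3 and 12.6 FPKM at 1/5 LD50 at day 3, and was 0.26 ± 0.08 lower than saline there (adjusted p = 0.0438, limma). Without replicates 1 and 2 of that group the estimate was -0.19 and -0.23 (adjusted p = 0.208 and 0.169). It was -0.26, -0.27 and -0.26 without saline replicates 1, 2 and 3 (0.102, 0.0935 and 0.112), -0.26 without the 7 libraries (0.203), and -0.16 with the length trend removed (0.189). The mean of the doses was 0.19 ± 0.07 lower at day 3 (adjusted p = 0.0513) and 0.17 ± 0.07 lower at day 7 (0.0875). The day 3 value passed with median-ratio scaling (0.0113), without the 2 libraries of high mitochondrial share (0.0211), without replicate 3 of 1/5 LD50 (0.0136) and without replicate 1 of 1/2 LD50 (0.0430). The day 7 value passed without replicate 1 of 1/10 LD50 (0.0357) and without replicate 3 of 1/2 LD50 (0.0448). Each missed the threshold in 10 of 12 cases with a library left out. The 1/5 LD50 group at day 7 passed with median-ratio scaling (0.0139), without its replicate 2 (0.0318) and without the 2 libraries of high mitochondrial share (0.0285).

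**Figure D3:**
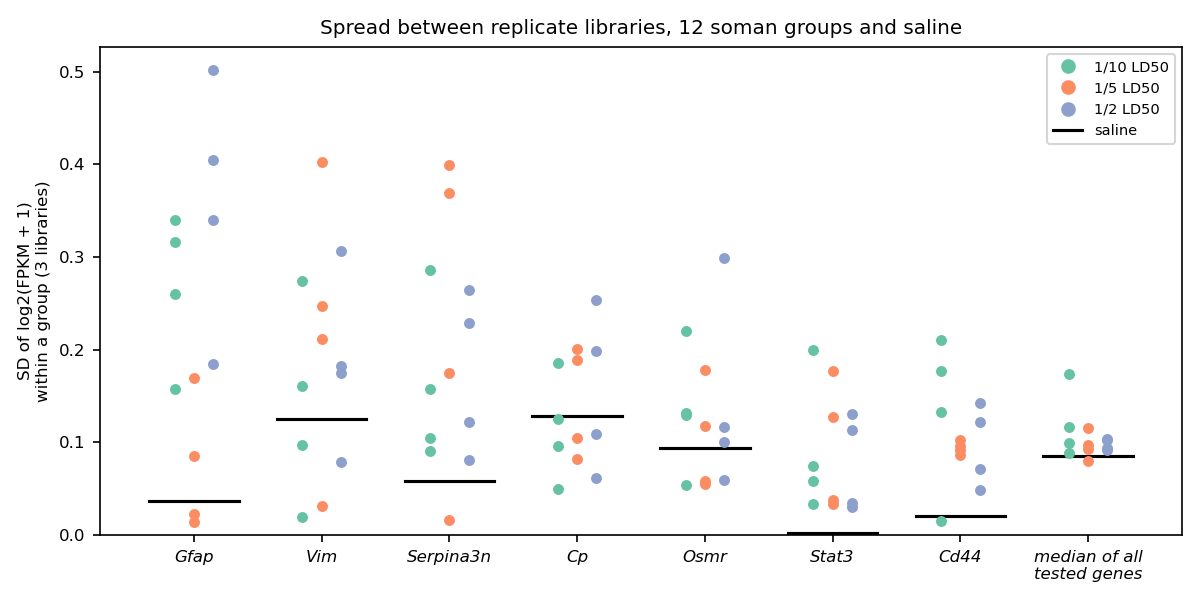
SD of log2(FPKM + 1) over the 3 libraries of a group (y axis) for each tested gene and as the median over all tested genes; points are the 12 soman groups coloured by dose and the line is saline. Every soman point of Stat3 lies above its saline line, at 0.0299 to 0.1999 against 0.00230.

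The spread between replicates was wider in most soman groups than in saline for 6 of the 7 tested genes, Cp being the exception. For Gfap the SD on the log2 scale was above that of saline (0.0363) in 10 of 12 soman groups, up to 0.502, for Serpina3n and Cd44 in 11 of 12, and for Vim and Osmr in 8 of 12. For Cp it was above that of saline (0.129) in 5 of 12, with a median over soman groups of 0.117. The median over all tested genes was above saline in 11 of 12 groups as well, so this is shared with other genes. The saline group holds 1 of the 7 libraries that lie between others.

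Timp1, an inhibitor of matrix metalloproteinases, was low in every library. It averaged 0.391 ± 0.128 FPKM in soman and 0.377 ± 0.0136 FPKM in saline libraries (SD, n = 36 and 3), with 17 soman libraries above and 17 below all of saline. Cd44, the cell surface receptor for hyaluronan, averaged 0.889 ± 0.154 FPKM in soman and 0.884 ± 0.0269 FPKM in saline, and no group passed, with a lowest adjusted p of 0.603 (limma). At 1/10 LD50 at day 1 both genes lay wholly above saline, with 0.667, 0.4999 and 0.546 FPKM of Timp1 and 1.02, 1.06 and 1.06 FPKM of Cd44. Among tested genes, which include Cd44 but not Timp1, 9.09% did so in that group.

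Steap4, a metalloreductase that reduces iron and copper, was near 0, at 0.0667 ± 0.0450 FPKM in soman and 0.0519 ± 0.0450 FPKM in saline libraries (SD, n = 36 and 3). It was listed at 0 in 3 soman libraries and 1 saline library. Its day 1 libraries ranged from 0.0613 to 0.203 FPKM, and those of day 3 from 0 to 0.104 FPKM. The test among days missed the threshold without a filter and with a pseudocount of 0.1 (adjusted p = 0.0600, limma) and passed without a filter alone (0.0444).

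The sequence before the start sites of the genes was searched because Stat3 binds the motif TTCNNNGAA, which is its own reverse complement. In the 250 bases upstream of the start sites (RefSeq, GRCm38.p6) it was found for 1 of the 10 genes, Steap4, which have 11 windows between them, and for 8.13% of all 27025 genes with a window. The Steap4 window is chr5:7960222-7960471 on the plus strand, with the motif in capitals, and that of Lcn2, the gene of widest range, is chr2:32387740-32387989 on the minus strand and holds no match. A match is a description of the letters only.
Steap4: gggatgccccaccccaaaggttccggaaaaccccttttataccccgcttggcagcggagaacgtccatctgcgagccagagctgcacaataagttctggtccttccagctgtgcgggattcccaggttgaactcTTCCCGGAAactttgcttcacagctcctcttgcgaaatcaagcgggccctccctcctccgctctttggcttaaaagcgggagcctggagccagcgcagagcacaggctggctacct
Lcn2: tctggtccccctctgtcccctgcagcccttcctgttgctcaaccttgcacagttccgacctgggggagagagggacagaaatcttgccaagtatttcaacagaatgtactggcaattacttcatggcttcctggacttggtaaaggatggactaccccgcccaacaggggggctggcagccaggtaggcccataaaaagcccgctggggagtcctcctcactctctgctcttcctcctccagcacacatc

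Over the 13 group means of log2(FPKM + 1), Gfap had a Pearson r of 0.632 with Vim and of -0.351 with Serpina3n, as a description across groups that share the saline group and library totals. Among the genes most like Gfap were Fntb (0.857), Aga (0.852), Hadha (0.850) and Orai1 (0.844). When the 13 groups were ordered by mean, neighbouring groups overlapped in all 12 pairs for 8 of the 10 genes, and in 11 of 12 for Serpina3n and Stat3. Neighbours in such an order have the closest means, and the same count was not made over all tested genes. It is therefore a description and not a trait of these genes.

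Among 33 other reactive astrocyte genes, 24 were tested. By the mean of the doses against saline, 1 fell at day 1, 3 at day 3, 4 at day 7 and 1 at day 14, and 0 rose, where 0.306%, 9.58%, 10.5% and 0.748% of all tested genes fell and 0.0748%, 6.46%, 4.09% and 0.156% rose. Their median log2 change was -0.10, 0.04, -0.02 and -0.09 at these days. None of them passed at any of these days once the 7 libraries were left out (0 of 24, limma). With the 2 libraries of high mitochondrial share left out, 5 fell and 2 rose at day 3, 4 fell and 1 rose at day 7, and 1 fell at each of days 1 and 14. The share of all tested genes called in either direction also moved over the settings, single libraries left out aside. It ran from 0.0204% to 0.544% at day 1 and from 4.46% to 21.8% at day 3. At day 7 it ran from 3.01% to 15.4%, and at day 14 from 0% to 1.56%. Counts with libraries left out, for this and the other gene and marker lists, therefore cannot be set against the shares with all libraries.

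Hspb1, a small heat shock protein, fell to 4.20 ± 1.12 FPKM at day 1, against 7.94 ± 0.675 FPKM in saline (SD, n = 9 and 3; adjusted p = 0.0119, limma). It was at 8.32 ± 1.65 FPKM at day 14. B3gnt5, a glycosyltransferase, fell to 0.528 ± 0.222 FPKM at day 7, against 1.08 ± 0.0830 FPKM in saline (adjusted p = 0.0147). Psmb8, a subunit of the immunoproteasome, had 3.83 ± 3.37 FPKM at day 3 and 1.72 ± 0.216 FPKM in saline, and did not pass (0.0560).

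Of 30 genes of the interleukin-6 family and Stat3 pathway 18 were tested, and 4 fell at day 3, 3 fell at day 7 and 1 rose at day 14, where 9.58% and 10.5% of all tested genes fell and 0.156% rose. Jak1, the kinase that these receptors use, fell to 32.4 ± 1.95 FPKM at day 7, against 38.2 ± 0.540 FPKM in saline (adjusted p = 0.00277, limma). Junb, an AP-1 factor, fell to 7.89 ± 1.75 FPKM at day 3, against 11.9 ± 0.766 FPKM in saline (adjusted p = 0.00923). Fosl2, another AP-1 factor, fell to 2.51 ± 0.381 FPKM at day 3 and rose to 5.62 ± 0.520 FPKM at day 14, against 4.10 ± 0.324 FPKM in saline (adjusted p = 0.000235 and 0.0468). With the 7 libraries left out, 1 gene of this list fell at day 3 and 0 passed at the other days. With the 2 of high mitochondrial share left out, 1 fell at day 1, 4 at day 3 and 2 at day 7, and 2 rose at day 14.

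Of the homeostatic astrocyte genes 24 of 24 were tested, with 0 called at days 1 and 14 and 1 fall each at days 3 and 7, against falls of 9.58% and 10.5% of all tested genes. That gene was Slc4a4, a bicarbonate transporter, with 28.9 ± 4.58 FPKM at day 3 and 28.8 ± 5.45 FPKM at day 7, against 37.1 ± 3.32 FPKM in saline (adjusted p = 0.0280 and 0.0246, limma). It was lost when the 7 libraries were left out, and with the 2 of high mitochondrial share left out 1 gene of the list fell at day 3 and 0 at day 7.

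Genes of iron and copper handling, the process in which Cp and Steap4 act, had 15 tested members of 18. At day 3, 4 fell and 1 rose, where 9.58% of all tested genes fell and 6.46% rose, and at day 7, 5 fell and 1 rose, where 10.5% fell and 4.09% rose. The gene that rose was Fth1, the ferritin heavy chain that stores iron, with 1268 ± 153 FPKM at day 7, against 929.9 ± 58.8 FPKM in saline (adjusted p = 0.00146, limma). Ireb2, a sensor of cell iron, fell to 11.8 ± 1.05 FPKM, against 14.7 ± 1.21 FPKM in saline (0.00177). Atp7a, a copper pump, fell to 1.36 ± 0.231 FPKM, against 1.85 ± 0.0993 FPKM in saline (0.0123). Leaving out the 7 libraries left 0 calls at either day, and leaving out the 2 of high mitochondrial share gave 5 falls and 2 rises at each, and 1 fall at day 14.

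Of 15 metalloproteinases and TIMP genes 13 were tested, and 4 fell at day 3, 5 at day 7 and 1 at day 14, where 9.58%, 10.5% and 0.748% of all tested genes fell. Mmp16, a membrane metalloproteinase, fell to 3.69 ± 0.586 FPKM at day 7, against 5.21 ± 0.591 FPKM in saline (adjusted p = 0.000143, limma), and Adam10, a shedding protease, fell to 17.0 ± 0.990 FPKM, against 20.5 ± 1.05 FPKM (0.00136). With the 7 libraries left out 1 gene fell at day 3 and 1 at day 7, and with the 2 of high mitochondrial share left out 4 fell at day 3, 2 at day 7 and 1 at day 14. Of 13 genes of Cd44 ligands and hyaluronan 9 were tested, and 1 fell at day 3 and 2 at day 7, against the same shares of all tested genes. The counts were 1 and 2 again without the 7 libraries, and 2 at each day and 1 at day 14 without the 2 of high mitochondrial share. Cemip, which takes part in hyaluronan breakdown, was at 2.17 ± 0.294 FPKM at day 7, against 4.15 ± 0.248 FPKM in saline (adjusted p = 7.27e-06), and Cemip2 at 2.67 ± 0.257 FPKM, against 3.66 ± 0.250 FPKM (0.00122).

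**Figure D4:**
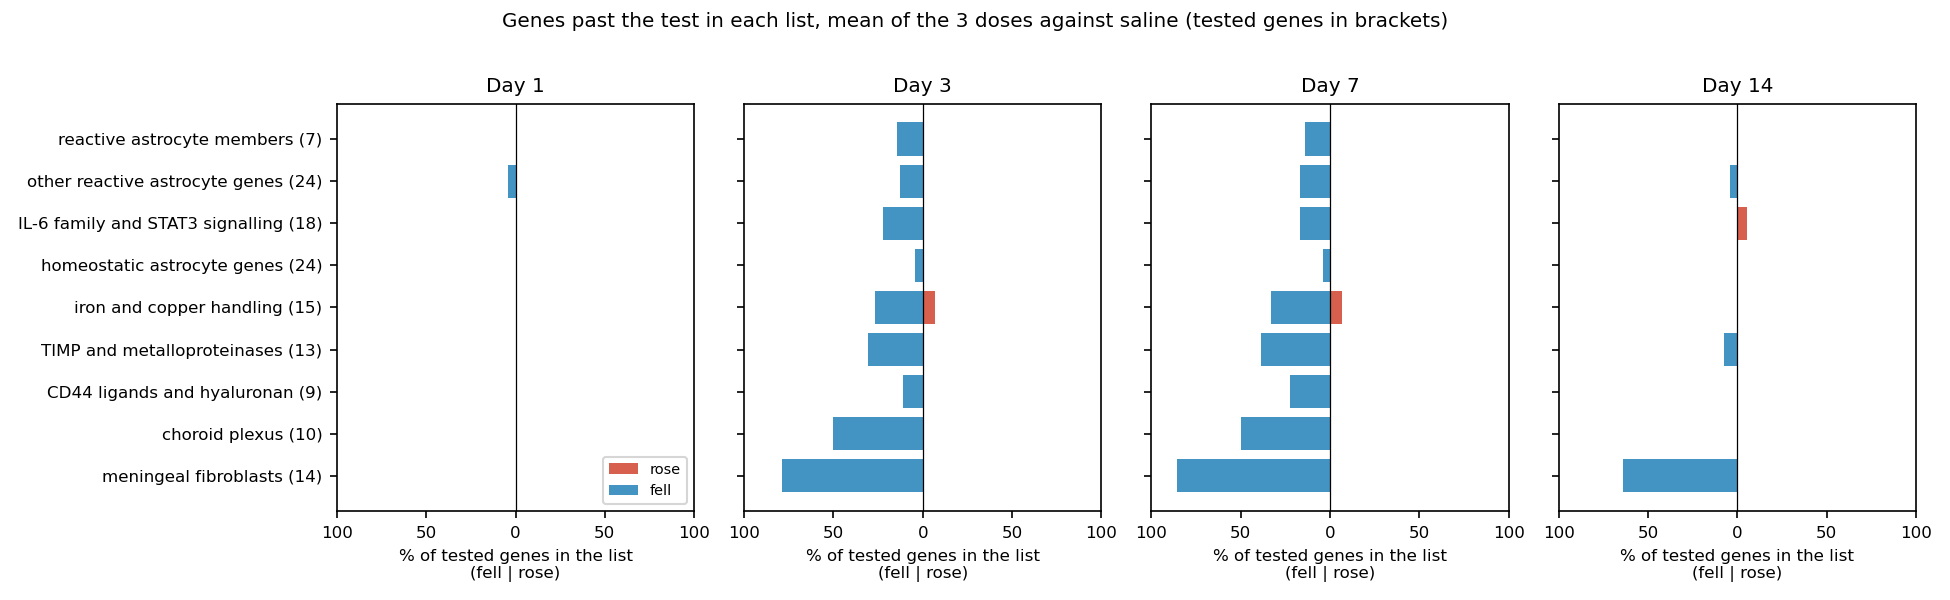
Percent of the tested genes of each list that rose (right) or fell (left) by the mean of the 3 doses against saline, at days 1, 3, 7 and 14, with the number tested in brackets. Falls outnumber rises at days 3 and 7, and the meningeal fibroblast markers have the longest bars, with 11 and 12 of 14.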

How the data were processed

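The 39 libraries were made from poly(dT)-selected brain RNA, extracted in Trizol; per the labels' protocols, cDNA was made by a SmartScribe kit. The submitters' processing notes give HISAT2 as aligner and list GRCh38, a human build, although the samples are mouse; no coordinates were taken from the files. The authors deposited FPKM for 47561 genes; the program that computed them is not given in the sources used here. Low values did not come out as whole reads (0.8% at most shared the commonest ratio), so the depth behind each value is not known.

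Groups came from the labels. The 14701 genes with an FPKM of 1 or above in 3 or more libraries were fitted as log2(FPKM + 1) in 1 limma model of 13 groups (limma 3.58.1, R 4.3.3; eBayes with trend), with Benjamini-Hochberg adjustment over all of them and a threshold of 0.05. Differences among days and the interaction of dose with day were tested by F. P-values measure the spread between these libraries. Members and gene lists were chosen with earlier results of these data known. The 10 genes are always named, with up to 4 genes of smallest p from each list among those that passed among days or for all soman against saline, and the 5 genes most like Gfap; of these the text gives the ones it describes, and 1 gene like Gfap is not reported here.

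The settings tried in turn were no filter, a pseudocount of 0.1, scaling by median ratios, the replicate number as block, a fit of only the groups compared, and leaving out each library. Others left out the 2 libraries whose mitochondrial share was above 2 times the median, left out the 7 libraries between others, or took out a lowess trend (span 0.5) on transcript length (GENCODE vM21, 14104 genes, 95.94%). A library was between others when, over genes averaging at least 5 FPKM that differed over 2-fold in the other 2 libraries of its group, its share at positions 0.3 to 0.7 exceeded that of every library from other groups. No filter with a pseudocount of 0.1, alone and with libraries left out, was added after the data were seen, as were the list counts without libraries. The code was tested on simulated data. Figures used Python 3.11.15 with matplotlib 3.10.9.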

Additional observations from a re-analysis of the deposited data

Results flagged for a closer look

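Among the soman groups, 3 of the 10 genes passed a test of a difference between days (limma F-test, adjusted over all tested genes). It asks whether the change from the shared saline group was the same at each day. Groups of 3 libraries were not tested for outlying values. Cp had an adjusted p of 0.000686, with its lowest means at days 7 and 3. Lcn2, fitted without a filter and with a pseudocount of 0.1, had an adjusted p of 0.00362, with its highest mean at day 3. Serpina3n had an adjusted p of 0.0484, with its lowest mean at day 1. It missed the threshold in 25 of 36 cases with 1 library left out, and at 0.363 without the 7 libraries between the others. In the fit that holds Cp and Serpina3n 49.5% of genes passed the same test, and in that of Lcn2 18.3% of 37782 genes passed. Days and any batch that libraries of a day share cannot be told apart, since the labels name no batch.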

How the results depend on the processing

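Over 26 comparisons, the number of reactive astrocyte genes called changed with the libraries and settings used. At 1/5 LD50 at day 3 it was 2, and 0 with no filter, with only the groups compared, without the libraries between the others, with the length trend removed, and with no filter and a pseudocount of 0.1. At 1/5 LD50 at day 7 it was 1, then 2 with median-ratio scaling and without the libraries of high mitochondrial share, and 0 without the libraries between the others and with the length trend removed. At 1/2 LD50 at day 7 it was 1, and 0 with only the groups compared and without the libraries between the others. For the mean of the doses at day 3 it was 1, then 2 with median-ratio scaling and without the high mitochondrial libraries, and 0 with no filter, with only the groups compared, without the libraries between the others, with the length trend removed, and with no filter and a pseudocount of 0.1. For the mean at day 7 it was 1, and 0 with only the groups compared, without the libraries between the others and with the length trend removed. For day 14 against day 1 it was 0, and 1 with median-ratio scaling, with only the groups compared and without the high mitochondrial libraries. For day 7 against day 1 it was 2, then 1 with no filter, with only the groups compared, without the high mitochondrial libraries and with no filter and a pseudocount of 0.1, and 0 without the libraries between the others. For 1/2 against 1/10 LD50 at day 7 it was 1, then 2 with median-ratio scaling and with the length trend removed, and 0 with no filter, with only the groups compared, without either set of libraries, and with no filter and a pseudocount of 0.1. For any difference among days it was 2, and 1 with a pseudocount of 0.1, with only the groups compared and without either set of libraries. Serpina3n missed the threshold there (0.0506, 0.0614, 0.0874 and 0.363 in that order), and also with no filter (0.116), with the length trend removed (0.0712) and with no filter and a pseudocount of 0.1 (0.116), where the count, then without Serpina3n, was 3, 2 and 2. Apart from the settings that leave out samples or test more genes, the cause was not tested.

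With each library left out in turn the count ran from 0 to 2 at 1/5 LD50 at days 3 and 7, for the means at days 3 and 7 and for 1/2 against 1/10 LD50 at day 7, from 0 to 1 at 1/2 LD50 at day 7, for day 14 against day 1 and for the interaction, and from 1 to 2 for day 7 against day 1 and among days. For the tested genes, direction was followed only in results with an unadjusted p under 0.05 (limma) and in all soman against saline. Among these it turned for values near 0 only, those of Osmr and Cd44 over all soman. Osmr was 0.00720 with the length trend removed. Cd44 was 0.00480 with median-ratio scaling, 0.0607 with the length trend removed, and -0.0117 to 0.00957 with a library left out.

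Replicate numbers showed no pairing of the samples by the correlation of deviations from group means. Over 234 pairs of same-numbered libraries it ran from -0.326 to 0.355 (mean -0.00289), and 14 of 39 libraries correlated best with their own number. Most of the libraries between others were replicate 3, and a library midway between its partners deviates little from its group mean. The correlation therefore cannot settle whether libraries of a number share something. With the number as a block, 0 genes were called at 1/5 LD50 at day 3 (Cp 0.0531, Stat3 0.0541), 0 for 1/2 against 1/10 LD50 at day 7 (Cp 0.0555), and 1 for day 14 against day 1 (Serpina3n 0.0319). The block changed no other call of these genes.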
